A study of Mus musculus with 9 samples.

Results

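The genes described here are 10 histone variant genes of the mouse, namely the macroH2A genes H2afy and H2afy2, the H2A.Z genes H2afz and H2afv, H2afx, H2afj, the H3.3 genes H3f3a and H3f3b, and the linker histone genes H1f0 and H1fx. They were listed by name, as histone genes that are expressed outside S phase; no measured value enters the rule, but the list was made when earlier results of these data were known. All 10 were found among the 52780 genes of the deposited count table, and all 10 were among the 19545 genes that passed a filter on low counts and were tested. mRNA was measured at day 4 of differentiation in C2C12, an immortal line of mouse myoblasts whose cells fuse in culture to multinucleated myotubes. There were 9 samples in 3 groups of 3: cells labelled wild type (WT), cells in which macroH2A1.1 was knocked down by siRNA (si mH2A1.1), and cells in which macroH2A1.2 was knocked down (si mH2A1.2). The siRNA was used at 10 nM, delivered repeatedly before and during differentiation. The labels give the controls as wild type and do not say whether they received a control siRNA. All groups come from this 1 line, and the study describes the 3 replicates as independent biological ones.

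Histones package DNA into nucleosomes, and most histone mRNA is made during S phase from clustered genes whose transcripts lack a polyA tail. Variant genes lie outside these clusters, mostly give polyadenylated mRNA in all phases of the cell cycle, and supply chromatin of cells that no longer divide, such as myotubes. MacroH2A is an H2A with a large globular macrodomain at its end. Its main gene, H2afy, gives the splice isoforms macroH2A1.1, whose macrodomain binds ADP-ribose and related NAD metabolites, and macroH2A1.2, whose macrodomain does not.

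The isoforms differ in exon 6, where H2afy uses either of 2 exons of the same gene, and each knockdown was directed at 1 isoform. H2afy (ENSMUSG00000015937) spans positions 56073619 to 56136361 of chromosome 13, minus strand (GRCm38, GENCODE M21). The exons are shown because they are the part of the gene that tells the isoforms apart, while the deposited count adds both. Exon 6 of transcript H2afy-202 (macroH2A1.1) has 91 bp at chr13:56088252-56088342, and exon 6 of H2afy-201 (macroH2A1.2) has 100 bp at chr13:56089758-56089857. Both are coding, and the transcripts have 9 exons each. In transcript direction they read
macroH2A1.1 exon 6: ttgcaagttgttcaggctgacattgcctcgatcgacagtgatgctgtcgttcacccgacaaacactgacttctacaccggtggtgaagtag
macroH2A1.2 exon 6: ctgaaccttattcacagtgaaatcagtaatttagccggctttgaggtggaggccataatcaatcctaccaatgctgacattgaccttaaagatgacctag

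Some members encode nearly the same protein from different genes, and whether their reads can be told apart bears on the results. The coding sequences of H3f3a and H3f3b translate to identical proteins of 136 residues, counting the first methionine, but differ in 20 of their first 90 coding bases. Bases that differ between the 2 genes are in capitals (H3f3a-205, minus strand, chr1:180811837-180811926; H3f3b-201, minus strand, chr11:116023920-116024009).
H3f3a: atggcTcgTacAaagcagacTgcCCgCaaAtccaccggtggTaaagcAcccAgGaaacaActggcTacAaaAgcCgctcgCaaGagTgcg
H3f3b: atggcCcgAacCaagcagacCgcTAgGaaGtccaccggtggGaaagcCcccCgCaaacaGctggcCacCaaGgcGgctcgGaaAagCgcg

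Over the whole coding sequence 313 of 408 bases (76.7%) were identical in this pair, the longest identical run was 23 bases, and no 50-base window, the length of 1 read, was shared. The H2A.Z pair showed the same. H2afz and H2afv share 125 of 128 residues (97.7%) and 304 of 384 coding bases (79.2%), with a longest identical run of 14 bases and no shared 50-base window. Their first 90 coding bases differ at 19 positions, again in capitals (H2afz-201, plus strand, from 137864694 to 137865528 on chromosome 3; H2afv-202, minus strand, from 6433829 to 6444339 on chromosome 11; introns removed).
H2afz: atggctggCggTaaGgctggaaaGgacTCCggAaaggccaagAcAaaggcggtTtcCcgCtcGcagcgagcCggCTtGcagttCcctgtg
H2afv: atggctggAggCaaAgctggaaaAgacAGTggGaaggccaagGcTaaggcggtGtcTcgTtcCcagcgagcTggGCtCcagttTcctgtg

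Coding reads of 1 gene of a pair therefore do not match its partner in full. Copies elsewhere in the genome are another matter. In H2afz, 35.4% of the 50-base windows also occur in transcripts of other genes, mainly the protein-coding gene Tmcc1 (30.9%) and the processed pseudogene Gm8203 (16.9%), which can hold the same window. In H3f3a the share was 27.1%, over 193 other genes of which 39 are pseudogenes. H2afv had no shared window, and H2afy shared 5.94%, all with the antisense gene Gm47071, which held 36 to 55 counts per sample against 1215 to 2367 for H2afy. In H2afy2 the share was 15.4%, mainly with the protein-coding gene Aifm2 (8.75%) and the processed pseudogene H2afy3 (6.68%). Aifm2 held 1053 to 1760 counts per sample against 118 to 233 for H2afy2, and H2afy3 held 1 to 10. How the counting divided shared reads makes the levels of H2afz, H3f3a and H2afy2 less certain than those of H2afv and H2afy.

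Samples held 36924252 to 42223108 counts. Markers of myotubes were high in every library: Myh3, an embryonic myosin, ranged from 4305 to 8065 CPM (counts scaled by the TMM library size), and all 12 myotube markers were detected throughout. The fat cell markers Adipoq, Cidec and Lep had at most 2 counts in any sample, and the bone marker Ibsp at most 1. Other markers on these lists were detected at low levels. Of the fat cell markers, Plin1 had 6 to 13 counts and Fabp4 3 to 54. Of the bone markers, Sp7 had 1 to 17, Bglap 0 to 41, Dmp1 18 to 189 and Bglap2 96 to 282. In si mH2A1.1, all 10 interferon response genes examined rose, with a summed level of 200 to 657 CPM against 55.8 to 68 in WT. In bulk RNA, fewer cells of a type and less RNA per cell cannot be told apart.

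Against WT, 1 of the 10 genes passed the test in each knockdown, and it was not the same gene. H2afy fell with si mH2A1.1, and H2afv, the second H2A.Z gene, fell with si mH2A1.2. None passed upwards in the main fit, and H3f3b with si mH2A1.2 came nearest. With the replicate number as a block, H3f3b passed upwards with si mH2A1.2 (adjusted p = 0.0416, edgeR) and H2afx with si mH2A1.1 (adjusted p = 0.0337). That block called 5.14% and 20.8% of all tested genes in these 2 comparisons. Genes were called at an adjusted p below 0.05 in edgeR's quasi-likelihood test, with Benjamini-Hochberg adjustment over all tested genes. Across all tested genes this rule called 11.1% in the macroH2A1.1 knockdown and 2.35% in the macroH2A1.2 knockdown, so 1 of 10 is near the background in the former. Between the 2 knockdowns, 2 of the 10 were called (H2afy and H2afv) against 22.5% of all tested genes. The median log2 fold change of the members was -0.06, -0.14 and 0.12 in the 3 comparisons, beside medians over all genes of -0.01, -0.00 and -0.01. The comparisons share samples, so their values stand side by side and are not independent of each other.

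A stricter rule, an adjusted p below 0.01 and a log2 fold change of 0.8 or more in either direction, kept H2afy with si mH2A1.1 and no other member in any comparison, where it called 1.8%, 0.179% and 6.38% of all tested genes. By ranges alone, 2 members did not overlap between si mH2A1.1 and WT (34.2% of all genes), 3 between si mH2A1.2 and WT (22.5%), and 5 between the knockdowns (39.7%). At an unadjusted p under 0.05 the counts were 3, 3 and 4 of 10, beside 29.6%, 15.9% and 36.2% of all tested genes, so the first and the last are near the background.

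**Figure D1:**
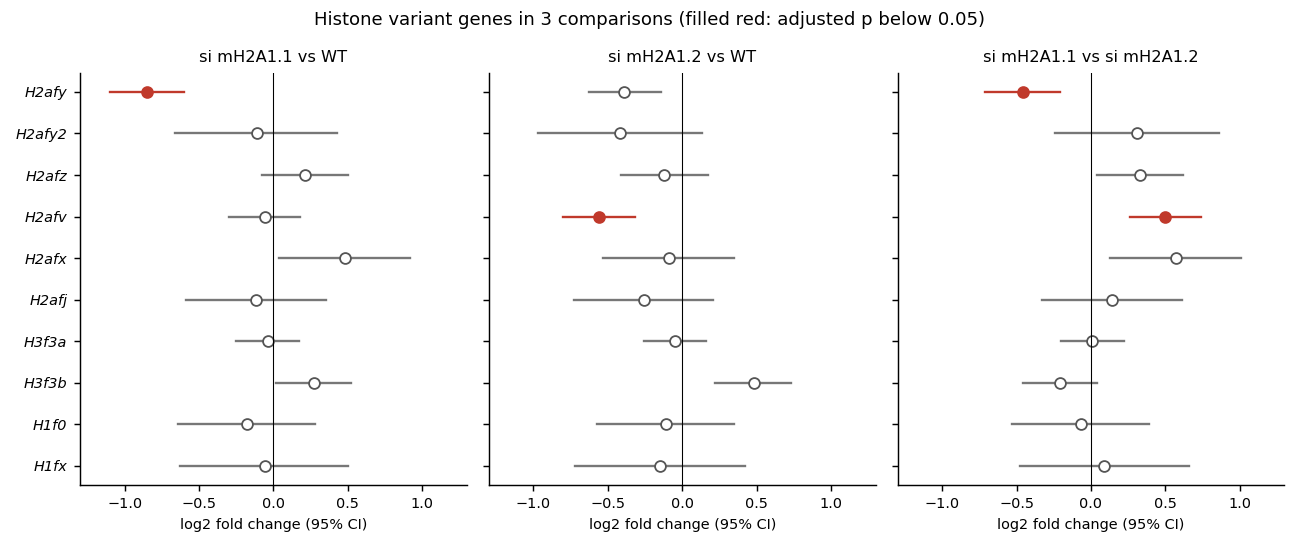
Fitted log2 fold change (x axis) of each histone variant gene (y axis) in 3 comparisons, with 95% confidence intervals; filled red points passed an adjusted p of 0.05. H2afy was at -0.85 with si mH2A1.1, H2afv at -0.56 with si mH2A1.2, and H3f3b at 0.48 with si mH2A1.2 did not pass.

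H2afy, the targeted gene, stood at 56.3, 62.4 and 61 CPM in WT, at 38.8, 30 and 30.9 CPM in si mH2A1.1, and at 46.8, 47.2 and 43.2 CPM in si mH2A1.2. The 3 groups did not overlap, and si mH2A1.1 was the lowest. In si mH2A1.1 the gene fell to 55.5% of WT (log2 fold change -0.85, SE 0.11, 95% CI -1.10 to -0.60, adjusted p = 0.00331, edgeR), and it was called in each of the 16 other settings tried, at adjusted p values of 4.96e-09 to 0.0176. In si mH2A1.2 it stood at 76.4% of WT (log2 fold change -0.39, SE 0.11, 95% CI -0.63 to -0.14). That difference missed the threshold in edgeR (adjusted p = 0.108) and passed it in DESeq2 (adjusted p = 0.0391); over all alternatives the adjusted p ran from 0.0313 to 0.245.

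The gene was also lower in si mH2A1.1 than in si mH2A1.2 (log2 fold change -0.46, 95% CI -0.71 to -0.21, adjusted p = 0.0159, edgeR), a call lost without replicate 3 of si mH2A1.1 (adjusted p = 0.0623) or without replicate 2 of si mH2A1.2 (adjusted p = 0.0587). Set against the mean WT level of 59.9 ± 3.18 CPM (SD, n = 3), the differences were 26.6 and 14.1 CPM. Together they came to 40.8 CPM, or 68.1% of the WT level. Since both isoforms are added in 1 gene count, these values are neither the depth of either isoform's knockdown nor the isoforms' shares.

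**Figure D2:**
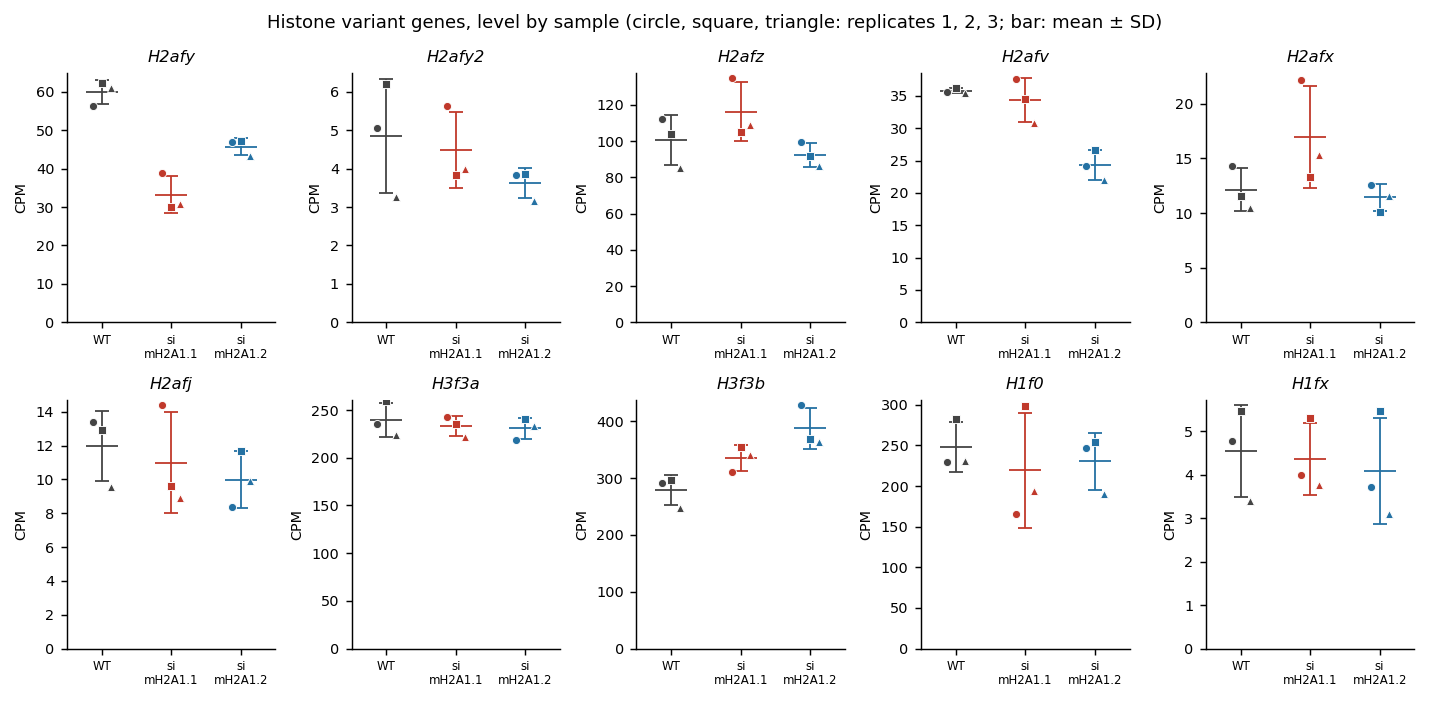
Level of each histone variant gene in CPM (y axis, from 0) in the 3 samples of each group; symbols mark replicates and bars the mean ± SD. H2afy samples fell into 3 separate ranges, 56.3 to 62.4 in WT, 30 to 38.8 in si mH2A1.1 and 43.2 to 47.2 in si mH2A1.2, and H2afv was lowest in all 3 si mH2A1.2 samples (22 to 26.7).

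H2afy2 (ENSMUSG00000020086, chromosome 10) encodes macroH2A2, the other macroH2A, whose coding sequence was 69.7% identical to that of H2afy-201. It was among the lowest members, with 118 to 233 counts per sample. The part of its shared windows in these values was not tested. Its levels were 5.06, 6.21 and 3.27 CPM in WT, 5.63, 3.83 and 3.99 in si mH2A1.1, and 3.83, 3.86 and 3.17 in si mH2A1.2. The ranges overlapped, and replicate 3 was the lowest in WT and in si mH2A1.2. No rise was detected in either knockdown: against WT, si mH2A1.1 gave a log2 fold change of -0.11 (95% CI -0.66 to 0.43, adjusted p = 0.795) and si mH2A1.2 one of -0.42 (95% CI -0.97 to 0.13, adjusted p = 0.458). A rise as large, on the log2 scale, as the amount by which H2afy was lower in the same comparison lies outside both intervals.

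As H2afy was lower and H2afy2 was not detectably higher, the summed macroH2A level was lower too. It was 64.7 ± 3.62 CPM in WT, 37.7 ± 5.87 in si mH2A1.1 and 49.4 ± 2.59 in si mH2A1.2 (SD, n = 3), and no sample of a knockdown reached the WT range. The exact permutation test gave p = 0.1 for each, the smallest that 3 against 3 samples allow, so it cannot pass 0.05. The same limit holds for each of the sums and ratios given for gene pairs, where the lowest Benjamini-Hochberg adjusted p was 0.2 over 12 sums and 0.18 over 9 ratios.

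Per count of H2afy there were 0.0899, 0.0996 and 0.0537 counts of H2afy2 in WT, 0.145, 0.128 and 0.129 in si mH2A1.1, and 0.0817, 0.0818 and 0.0733 in si mH2A1.2. The denominator is the targeted gene, which fell with si mH2A1.1 (log2 fold change -0.85), while H2afy2 itself did not rise (-0.11). With that, the ratio was higher in each si mH2A1.1 sample than in any WT sample (log2 difference 0.77, exact permutation p = 0.1). In si mH2A1.2 it differed from WT by 0.01 on the log2 scale (exact permutation p = 1), and by -0.26 without WT replicate 3. Per kb of merged exons, H2afy2 stood at 25.4% ± 7.58 of H2afy in WT, 41.9% ± 3.02 in si mH2A1.1 and 24.7% ± 1.52 in si mH2A1.2 (SD, n = 3). These percentages depend on the length taken for H2afy, whose merged exons (6809 bp) include retained introns while its coding transcripts have 2046 and 1933 bp. Per kb of coding transcript, a length chosen after the values were seen, they were 7.41% ± 2.21, 12.2% ± 0.882 and 7.22% ± 0.445.

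The H2A.Z genes encode an H2A that is placed at promoters and enhancers by the remodellers SRCAP and p400. H2afv (ENSMUSG00000041126, chromosome 11) stood at 35.6, 36.2 and 35.5 CPM in WT, the tightest group of any member (SD 0.369). In si mH2A1.1 it had 37.6, 34.5 and 30.8 CPM, and in si mH2A1.2 it had 24.2, 26.7 and 22 CPM. Every si mH2A1.2 sample lay below every sample of both other groups. H2afv fell with si mH2A1.2 (log2 fold change -0.56, SE 0.11, 95% CI -0.80 to -0.32, adjusted p = 0.0296, edgeR) and was higher in si mH2A1.1 than in si mH2A1.2 (0.50, 95% CI 0.26 to 0.74, adjusted p = 0.00978). The first call was lost when any 1 of the 6 samples of its own groups was left out, with log2 fold changes of -0.63 to -0.49 and adjusted p values of 0.0691 to 0.102. The second was kept in each of the 16 other settings (adjusted p 0.000283 to 0.0387). With si mH2A1.1 the log2 fold change from WT was -0.06 (95% CI -0.30 to 0.18, adjusted p = 0.744).

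H2afz (ENSMUSG00000037894, chromosome 3), the more highly expressed H2A.Z gene, was not called in any comparison. Its levels were 112, 104 and 85.1 CPM in WT, 135, 105 and 109 in si mH2A1.1, and 99.4, 91.7 and 86 in si mH2A1.2, and both knockdowns overlapped WT. From WT it differed by a log2 fold change of 0.21 in si mH2A1.1 (95% CI -0.08 to 0.50, adjusted p = 0.302) and of -0.12 in si mH2A1.2 (95% CI -0.41 to 0.17, adjusted p = 0.732). All si mH2A1.1 samples exceeded all si mH2A1.2 samples, a log2 difference of 0.33 that missed the threshold (adjusted p = 0.0933). Of the genes that share windows with H2afz, Tmcc1 was listed at means of 36.6 CPM in WT, 42.9 in si mH2A1.1 and 39.2 in si mH2A1.2. The pseudogene Gm8203 had means of 46.4, 51.2 and 39.6 CPM in the same order. Their part in the values of H2afz was not tested. The count ratio of H2afv to H2afz was 0.317, 0.349 and 0.416 in WT and 0.243, 0.291 and 0.256 in si mH2A1.2 (log2 difference -0.45, exact permutation p = 0.1). Because H2afz supplied most reads of the pair, their sum of 117 ± 7.98 CPM in si mH2A1.2 against 136 ± 14 in WT differed less (log2 difference -0.22, exact permutation p = 0.2).

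**Figure D3:**
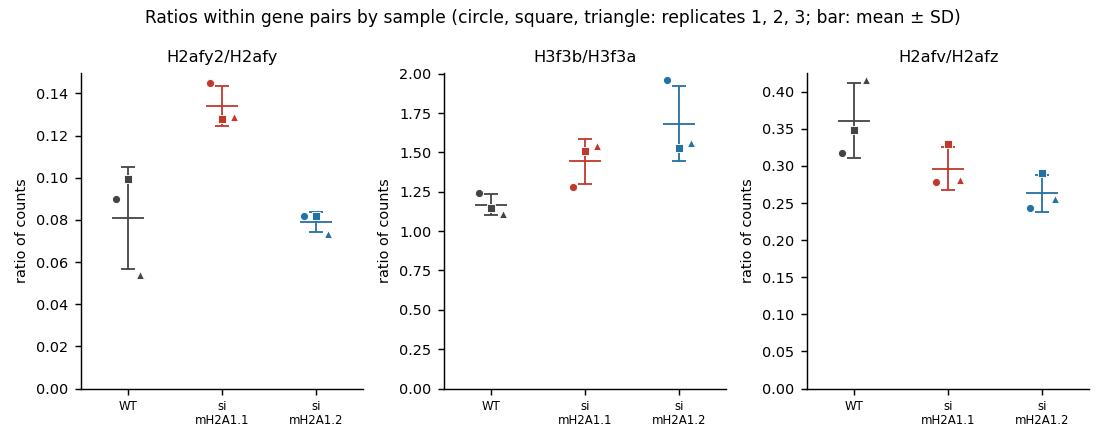
Ratio of counts (y axis, from 0) of H2afy2 to H2afy, H3f3b to H3f3a and H2afv to H2afz in the 3 samples of each group, with mean ± SD. H2afy2 per H2afy was 0.128 to 0.145 in si mH2A1.1 against 0.0537 to 0.0996 in WT, and H3f3b per H3f3a was above the WT range (1.11 to 1.24) in all 6 knockdown samples.

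H3.3 is the H3 that is inserted outside S phase, at active genes by HIRA and at repeats by DAXX and ATRX. H3f3b (ENSMUSG00000016559, chromosome 11) had 291, 297 and 248 CPM in WT, 310, 355 and 341 in si mH2A1.1, and 429, 369 and 364 in si mH2A1.2. No knockdown sample overlapped WT, and si mH2A1.2 was the highest group. Its log2 fold change reached 0.48 in si mH2A1.2 (SE 0.11, 95% CI 0.22 to 0.73) and missed the threshold in edgeR (adjusted p = 0.0623). It passed with DESeq2 (adjusted p = 0.00305) and in edgeR with the replicate number as a block (adjusted p = 0.0416). With this block 2 members, H2afv (adjusted p = 0.0141) and H3f3b, were called, against 5.14% of all tested genes. Of 16 alternatives 3 called H3f3b with si mH2A1.2. None of the 9 edgeR fits with 1 sample left out did (log2 fold change 0.39 to 0.53, adjusted p 0.0564 to 0.21). In si mH2A1.1 the log2 fold change was 0.27 (95% CI 0.02 to 0.52, adjusted p = 0.144).

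H3f3a (ENSMUSG00000060743, chromosome 1), which encodes the same protein, stood at 235, 259 and 224 CPM in WT, 243, 235 and 222 in si mH2A1.1, and 219, 241 and 233 in si mH2A1.2. All 3 groups overlapped. Its log2 fold changes of -0.04 and -0.05 had 95% confidence intervals from -0.25 to 0.17 and from -0.26 to 0.16, the narrowest of the members. The count ratio of H3f3b to H3f3a was 1.24, 1.15 and 1.11 in WT, 1.28, 1.51 and 1.54 in si mH2A1.1, and 1.96, 1.53 and 1.56 in si mH2A1.2 (exact permutation p = 0.1 for each knockdown). This ratio was chosen after the values of both genes had been seen. The summed H3.3 level was 518 ± 42.6 CPM in WT, 569 ± 18.7 in si mH2A1.1 and 618 ± 26.6 in si mH2A1.2. The log2 difference of the sum from WT was 0.14 (exact permutation p = 0.2) and 0.26 (p = 0.1).

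H2afx (ENSMUSG00000049932, chromosome 9) encodes H2A.X, which is phosphorylated around DNA breaks, and its gene gives a polyadenylated transcript and also an S phase transcript without a polyA tail, which these polyA-selected libraries leave out. It had 14.3, 11.6 and 10.5 CPM in WT, 22.2, 13.3 and 15.3 in si mH2A1.1, and 12.6, 10.1 and 11.6 in si mH2A1.2. The si mH2A1.1 samples ran higher, led by replicate 1, but overlapped WT. Their log2 fold change of 0.48 (95% CI 0.04 to 0.92) missed the threshold (adjusted p = 0.133), and it was 0.24 without that replicate. Over all 16 alternatives it was 0.24 to 0.63, with an adjusted p of 0.0225 to 0.443 that passed in 2.

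Markers of cycling cells are given beside these values. Of 15 such markers, 3 were called higher in si mH2A1.1 against WT. These were the thymidylate synthase gene Tyms (log2 fold change 1.09, adjusted p = 0.0247), the mitotic kinase gene Plk1 (1.09, adjusted p = 0.0417) and the replication helicase gene Mcm3 (1.27, adjusted p = 0.0426). All 15 lay above 0, with a median of 0.80 over the list. An unadjusted p under 0.05 was found for 13, beside 29.6% of all tested genes. The summed level of the 15 was 689, 553 and 470 CPM in WT, 1308, 625 and 920 in si mH2A1.1, and 515, 371 and 464 in si mH2A1.2. Replicate 1 of si mH2A1.1 was thus the highest library for these markers, as it was for H2afx and H2afz. It was also the highest for H2afv (37.6 CPM) and H2afj (14.4 CPM). None of the 15 was called with si mH2A1.2 against WT (1 at an unadjusted p under 0.05, and 0 in DESeq2). There the list's median was -0.39, with 1 of the 15 above 0. Between the knockdowns 14 of 15 were called, all higher in si mH2A1.1. The same rule called 11.1% of all tested genes with si mH2A1.1 against WT and 22.5% between the knockdowns. The part of cycling cells in the values of H2afx, H2afz, H2afv and H2afj was not tested.

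Clustered histone genes, most of whose mRNA is made in S phase without a polyA tail, showed a similar order in the forms measured here. Of 70 in the table, 34 passed the filter, and 5 of these rose in si mH2A1.1, including the H3 gene Hist2h3c2 (log2 fold change 1.82, adjusted p = 0.00856) and the H2B gene Hist1h2bc (0.61, adjusted p = 0.0313). The other 3 were Hist1h4n (2.05), Hist1h2bn (2.48) and Hist1h2be (1.31). Several of these large folds are at low levels. Hist1h2bn had a mean of 0.0878 CPM in WT and 0.505 in si mH2A1.1, and Hist1h4n 0.579 and 2.42. Hist2h3c2 had 0.86 and 3.05, and Hist1h2be 1.95 and 4.85. The calls are 5 of 34, where the same rule called 11.1% of all tested genes. The summed level of the 70 was 142 to 153 CPM in WT, 166 to 208 in si mH2A1.1 and 137 to 144 in si mH2A1.2. Of this, Hist1h1c held means of 62.1, 70 and 65.5 CPM and Hist1h2bc 26.6, 40.7 and 24.1, in the same order. Hist1h1c was not called against WT (adjusted p = 0.334 and 0.807, edgeR). The median over the list was 0.62 in si mH2A1.1 and -0.13 in si mH2A1.2. In the latter none was called in edgeR or DESeq2, and 5 had an unadjusted p under 0.05, beside 15.9% of all tested genes. Only polyadenylated forms are seen here.

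**Figure D4:**
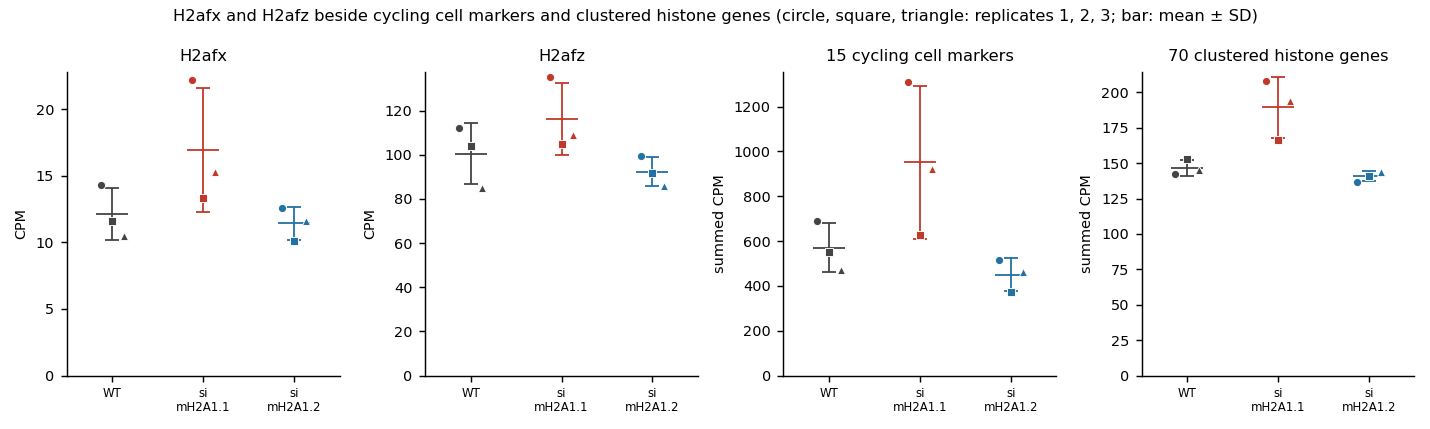
Level of H2afx and H2afz (CPM) and summed level (CPM) of 15 cycling cell markers and of 70 clustered histone genes in the 3 samples of each group, with mean ± SD; all y axes start at 0. Replicate 1 of si mH2A1.1 (circle) was the highest library in all 4 panels, at 22.2, 135, 1308 and 208.

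H2afj (ENSMUSG00000060032, chromosome 6) encodes H2A.J, which builds up in senescent cells. It had 13.4, 12.9 and 9.57 CPM in WT, 14.4, 9.63 and 8.92 in si mH2A1.1, and 8.34, 11.7 and 9.88 in si mH2A1.2. The groups overlapped, with log2 fold changes of -0.12 (adjusted p = 0.745) and -0.26 (adjusted p = 0.619) from WT. H2afx and H2afj were 80.2% identical over their coding sequence and shared 2 windows of 50 bases, and each also shared windows with 43 genes, which include clustered H2A genes in the case of H2afx.

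The linker histone genes were not called in any comparison. H1f0 (ENSMUSG00000096210, chromosome 15) encodes H1.0, which accumulates in differentiated cells that have left the cell cycle, and had 230, 283 and 231 CPM in WT, 165, 299 and 194 in si mH2A1.1, and 247, 254 and 190 in si mH2A1.2. The si mH2A1.1 samples were spread widest, with replicate 1, the library highest in cycling markers, lowest in H1f0. In WT, replicate 1 was also highest in these markers and lowest in H1f0, at 230 against 231 and 283 CPM. In si mH2A1.2, replicate 1 was highest in the markers but replicate 3 was lowest in H1f0. The part of cycling cells in the values of H1f0 was not tested. From WT, log2 fold changes were -0.18 (95% CI -0.64 to 0.28, adjusted p = 0.608) in si mH2A1.1 and -0.11 (95% CI -0.57 to 0.35, adjusted p = 0.857) in si mH2A1.2. H1fx (ENSMUSG00000044927, chromosome 6), which encodes the linker histone H1X, held 115 to 214 counts per sample, a level of 3.09 to 5.46 CPM over the 9 samples. Its log2 fold changes were -0.06 (95% CI -0.63 to 0.50) and -0.15 (95% CI -0.72 to 0.42). The summed level of both genes was 253 ± 31.4 CPM in WT, 224 ± 71.3 in si mH2A1.1 and 234 ± 36.1 in si mH2A1.2.

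All 10 genes together held 995 ± 83.1 CPM in WT, 1009 ± 70.7 in si mH2A1.1 and 1040 ± 66.9 in si mH2A1.2 (SD, n = 3), so the total differed by less than the spread between replicates. The share of H2afy in it was 6.04% ± 0.572, 3.32% ± 0.618 and 4.4% ± 0.107.

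Levels of different genes were compared per kb in WT, as long transcripts give more reads. Per kb of merged exons the order was H1f0 (121 CPM per kb), H3f3b (93.5), H3f3a (68.3), H2afz (56.5), H2afv (21.9), H2afy (8.8), H2afx (8.77), H2afj (6.52), H1fx (3.73) and H2afy2 (2.23). H2afy and H2afx overlapped across the WT samples, as did H1fx and H2afy2, while the other neighbours did not. Per kb of coding transcript H2afy moved up to 30.1 and passed H2afv, H3f3b moved to 140 and H2afz to 93.9. The ranges of H3f3b and H1f0 then overlapped, and so did those of H2afz and H3f3a. By this length H3f3b had 4.65 ± 0.559, H1f0 4.01 ± 0.371, H2afz 3.13 ± 0.559 and H3f3a 2.8 ± 0.2 times the level of H2afy in WT (SD, n = 3). In si mH2A1.1, where H2afy fell, these ratios were 10.3 ± 2.02, 6.62 ± 2.81, 6.52 ± 0.0585 and 4.97 ± 0.549. In si mH2A1.2 they were 8.45 ± 0.667, 4.86 ± 0.524, 3.76 ± 0.173 and 3.54 ± 0.249. H2afv stood at 0.728 ± 0.0369 of H2afy in WT, 1.26 ± 0.12 in si mH2A1.1 and 0.646 ± 0.0377 in si mH2A1.2.

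**Figure D5:**
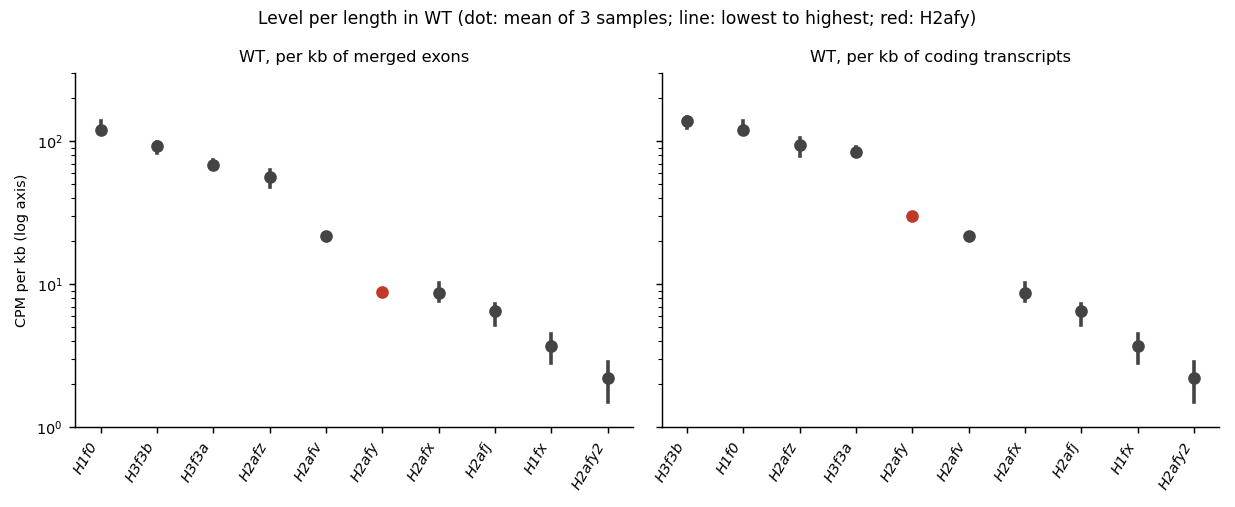
Level of the histone variant genes in WT in CPM per kb (y axis, log scale), per kb of merged exons on the left and of coding transcripts on the right; dots are means of 3 samples and lines run from the lowest to the highest. H2afy (red) is at 8.8 in the former and 30.1 in the latter, and H2afy2 is last in both at 2.23.

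Of the 31 genes listed for chaperones and remodellers that place or remove variants, 1 was called in si mH2A1.1 and none in si mH2A1.2. The same rule called 11.1% and 2.35% of all tested genes. In si mH2A1.2, 1 had an unadjusted p under 0.05, beside 15.9% of all tested genes, and DESeq2 called 1, beside 2.97% of the genes in its table. Ubn2, which encodes a subunit of the HIRA complex, fell with si mH2A1.1, from 147 ± 3.48 to 102 ± 21.6 CPM (log2 fold change -0.53, adjusted p = 0.0399). DESeq2 called 5 of the list in si mH2A1.1, beside 8.95% of the genes in its table. The most abundant members were Nap1l1, a nucleosome assembly protein, and Atrx, a partner of DAXX. Nap1l1 had log2 fold changes of 0.12 (adjusted p = 0.472) and -0.08 (adjusted p = 0.775), and Atrx of -0.16 (adjusted p = 0.417) and 0.15 (adjusted p = 0.607). The list's median was 0.11 in si mH2A1.1 and -0.06 in si mH2A1.2. Between the knockdowns 5 were called, 3 higher in si mH2A1.1 and 2 lower, beside 22.5% of all tested genes.

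None of 11 splicing regulators listed for exon 6 of macroH2A1 was called against WT in edgeR, while 4 in si mH2A1.1 and 5 in si mH2A1.2 had an unadjusted p under 0.05, as did 29.6% and 15.9% of all tested genes. DESeq2 called 1 with si mH2A1.1. The most abundant were the RNA helicase genes Ddx5 and Ddx17. Ddx5 stood at 1066 ± 129 CPM in WT, 1238 ± 44.3 in si mH2A1.1 and 1363 ± 184 in si mH2A1.2 (adjusted p = 0.319 and 0.234), and Ddx17 at 669 ± 51.7, 679 ± 85.8 and 819 ± 88 (adjusted p = 0.929 and 0.318). Between the knockdowns 2 of 11 were called, 1 in each direction, beside 22.5% of all tested genes.

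A list of 9 other genes was made for histone genes outside the clusters. Of these, 4 passed the filter and none was called against WT in edgeR (0 and 1 at an unadjusted p under 0.05, 0 in DESeq2). The 4 include H3f3c, which is annotated as a processed pseudogene, and Tspyl1, which is not a histone gene. Cenpa, the centromeric H3 variant, stood at 27.2 ± 4.2 CPM in WT, 35.6 ± 9.11 in si mH2A1.1 and 20.2 ± 2.9 in si mH2A1.2, the order seen for H2afx, and was higher in si mH2A1.1 than in si mH2A1.2 (log2 fold change 0.82, adjusted p = 0.0145). Tspyl1, a nucleosome assembly protein relative, had log2 fold changes of -0.10 (adjusted p = 0.594) and -0.11 (adjusted p = 0.694). Of 12 genes of the damage response around H2A.X, 11 were tested and none was called against WT in edgeR. In each knockdown 3 had an unadjusted p under 0.05, beside 29.6% and 15.9% of all tested genes. DESeq2 called 1 with si mH2A1.1. Trp53bp1, which reads marks at breaks, had log2 fold changes of -0.19 (adjusted p = 0.145) and -0.03 (adjusted p = 0.886), and Baz1b, a kinase for H2A.X, of 0.15 (adjusted p = 0.419) and -0.04 (adjusted p = 0.915).

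Some differentiation markers were called in each knockdown. Of 12 myotube markers, Myog (log2 fold change -0.66, adjusted p = 0.0204) and Actn2 (-0.74, adjusted p = 0.0125) fell with si mH2A1.1, and Actn2 (-1.25, adjusted p = 0.00631) and Tnnt3 (-0.96, adjusted p = 0.028) with si mH2A1.2. These are 2 of 12 in each, where the same rule called 11.1% and 2.35% of all tested genes. Over the whole list the median was -0.15 on the log2 scale in si mH2A1.1, with 4 of the 12 above 0, and -0.42 in si mH2A1.2, with 3 above 0. The summed level of the 12 was 20489 to 31201 CPM in WT, 18930 to 23378 in si mH2A1.1 and 17512 to 22535 in si mH2A1.2. Of 8 markers of undifferentiated myoblasts 1 was called against WT, Myf5, which fell with si mH2A1.2 (-0.84, adjusted p = 0.0422). The median of these 8 was 0.23 in si mH2A1.1, with 6 above 0, and 0.04 in si mH2A1.2, with 4 above 0. Their summed level was 450 to 710 CPM in WT, 776 to 1073 in si mH2A1.1 and 433 to 868 in si mH2A1.2. Most of this sum is Cdh15, with means of 329, 652 and 393 CPM in the same order. Cdh15 was not called against WT (adjusted p = 0.0708 and 0.762, edgeR), and Id3 went the other way in si mH2A1.1 (log2 fold change -0.70, adjusted p = 0.139). The part of cell state in the fall of H2afv was not tested.

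Across the 9 samples, the genes whose level was most like that of H2afy included Rnaseh2a, a subunit of ribonuclease H2 (Pearson r = 0.928 of log2 CPM), Cyp51, an enzyme of sterol synthesis (0.923), Snapc4, a subunit of the snRNA gene activator (0.916), and Rpl3, a ribosomal protein (0.916). The r is a description over samples that fall into 3 groups, taken among 11248 genes of at least 5 CPM on average, of which 15 reached 0.9. Cyp51 stood at 136 CPM in WT, 94.6 in si mH2A1.1 and 123 in si mH2A1.2 and fell with si mH2A1.1 (log2 fold change -0.52, adjusted p = 0.0268). Rnaseh2a, by contrast, had a log2 fold change of -0.23 (adjusted p = 0.172) in that comparison, so likeness in pattern did not mean likeness in size.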

How the data were processed

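The authors sequenced polyA-selected mRNA as single reads of 50 bases, estimated reads per transcript with Salmon 0.13.1 on GRCm38, and imported them with tximport for DESeq2. The deposited table gives these expected counts for each gene, rounded to integers and not normalized. A second deposited table of normalized values was not used. The annotation release is not given in the sources used here. GENCODE M21 supplied names, positions, lengths and sequences, and 52762 of the 52780 genes matched it.

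Groups and replicate numbers came from the labels. 1 edgeR model held all samples and gave 3 contrasts (edgeR 4.0.16 in R 4.3.3, legacy quasi-likelihood fit, TMM library sizes, filterByExpr with 19545 genes kept, Benjamini-Hochberg adjustment). The SE is the absolute log2 fold change divided by the square root of F. The test was checked on simulated data. Alternatives were DESeq2 1.42.0, its size factors, no filter, the newer quasi-likelihood form, only the contrast's own samples, the replicate block, a stricter threshold, the longest transcript as length, and leaving out each sample. DESeq2 with the block, the coding transcript length and the ratios of counts were added after the values were seen. Sums and ratios were compared by 2-sided exact permutation tests. Transcripts were searched for shared 50-base windows on their own strand and its reverse, as the libraries' strand is not stated. Residue identity is over translated coding sequences aligned end to end. Intervals on fold changes are at 95%.

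The members and gene lists were chosen with earlier results of these data known. Named genes are the members, up to 6 called genes of each list and contrast against WT by lowest adjusted p (otherwise the 2 of highest mean CPM), and the 5 genes most like H2afy, of which 1 is not reported here. The siRNA sequences are not shown here. Other steps ran in Python 3.11.15 (scipy 1.17.1, biopython 1.88, numpy 2.4.6, matplotlib 3.10.9, pandas 2.3.3).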

Additional observations from a re-analysis of the deposited data

How the results depend on the processing

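The direction and the call of H2afy with si mH2A1.1 were kept in all 16 alternative settings (log2 fold change -0.97 to -0.78), and H2afv stayed lower with si mH2A1.2 in all 16, though called in 10. The count of members called was least stable for si mH2A1.2 against WT: 0 by the stricter threshold, 3 with DESeq2 and with DESeq2 and the replicate block (H2afv, H2afy and H3f3b), 2 with the replicate block, and 0 to 2 when 1 sample was left out. With si mH2A1.1 it was 2 with the replicate block in edgeR or DESeq2, where H2afx joined H2afy (log2 fold change 0.46, adjusted p = 0.0337 and 0.0225). Between the knockdowns it was 0 by the stricter threshold, 4 with the replicate block in either tool (H2afv, H2afx, H2afy and H2afz), and 1 to 3 when 1 sample was left out. Of all tested genes, the block in edgeR called 20.8%, 5.14% and 29% in these comparisons (si mH2A1.1 and si mH2A1.2 against WT, then between them), and fits with 1 sample left out 2.99% to 14.6%, 0.367% to 2.72% and 11.2% to 23%. DESeq2 called 3354, 1113 and 5037 of 37475 genes, and with the block 4091, 1580 and 5458, its table including genes below edgeR's filter. The log2 fold change of H2afy with si mH2A1.2 was -0.39 with DESeq2 (adjusted p = 0.0391), -0.40 with DESeq2 and the block (adjusted p = 0.0313) and -0.43 to -0.35 with 1 sample left out, passing once, without replicate 1 of si mH2A1.1. Between the knockdowns it was -0.59 to -0.39. Why the calls differ was not tested.

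Samples of the same replicate number deviated together more than others (r 0.0841 to 0.331 over 9 pairs, mean 0.155, against -0.267 to 0.0358 over 18 pairs of different numbers), and in 18 of 18 cases the best match in another group had the same number. This is a hint from the data and from the sample codes, which run in sequence over the 3 groups within each replicate number. The labels name no shared batch, and 5 of 9 pairs exceeded 0.1, among them all 3 pairs of si mH2A1.2 with WT.

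The ratio of H2afy2 to H2afy was 0.15, 0.247 and 0.146 in WT, si mH2A1.1 and si mH2A1.2 per kb of longest transcript and 0.0741, 0.122 and 0.0722 per kb of coding transcript. Its log2 difference between si mH2A1.2 and WT was -0.26 to 0.18 with 1 sample left out, and that of the summed linker histones was -0.19 to 0.02. Against WT with si mH2A1.1, DESeq2 called 10 and the block 13 of the 15 cycling markers (3 in the fit above), 10 and 10 of the clustered histone genes (5), 5 and 7 of the chaperones (1), 2 and 3 of the myoblast markers (0), and the block 5 of the myotube markers (2), while DESeq2 called 4 of the latter with si mH2A1.2 (2).

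Leaving out 1 sample turned the sign of small differences. Against WT with si mH2A1.1 the ranges were -0.34 to 0.10 for H2afy2, -0.13 to 0.01 for H2afv, -0.36 to 0.01 for H2afj, -0.09 to 0.02 for H3f3a and -0.25 to 0.09 for H1fx. With si mH2A1.2 they were -0.19 to 0.05 for H2afx, -0.10 to 0.01 for H3f3a, -0.18 to 0.01 for H1f0 and -0.42 to 0.01 for H1fx. Between the knockdowns they were -0.11 to 0.27 for H2afj, -0.02 to 0.05 for H3f3a, -0.36 to 0.10 for H1f0 and -0.08 to 0.35 for H1fx. H2afy2 and H1fx, with 115 to 233 counts per sample, had the widest intervals against WT; the part of depth in this was not tested, and H1f0 also had an SE of 0.21 at 6684 to 12111 counts.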
